A study of Homo sapiens with 4 samples.

Results

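Chromatin loops that end at FLI1-flagged anchors were described in A673 cells, a cell line from Ewing sarcoma, with and without STAG2. An anchor is a stretch of the genome where a loop ends. The authors' deposited table lists 650 differential loops with a flag for FLI1 at each anchor. Anchors whose own flag was TRUE were taken, and every high-confidence loop that ends at such an anchor was a member. This gave 172 of the 1134 anchors of that table (15.2%) and 1425 of the 22680 high-confidence loops (6.28%). Of the 1425 loops, 1370 had 1 flagged end and 55 had both ends flagged. The flags exist only for anchors of the differential table, which are 6.63% of the 17105 anchors of high-confidence loops. A loop whose ends are not in that table can therefore be no member, whatever protein is bound there. The sources used here do not say which FLI1 data the flags rest on. A separate FLI1 column of the authors' deposited table, given per loop, is TRUE in 98 of the 169 loops with a flagged end and in 0 of the others. It is TRUE in 98 of 109 loops of the authors' deposited table with the upstream end flagged and in 0 of 60 with only the downstream end flagged, and was not used.

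The groups were 2 libraries labelled STAG2-null and 2 labelled wild-type, all from A673 cells grown without a stated treatment. The STAG2-null cells were Cas9-edited clones, each from a single cell, per the labels, so genotype and clone cannot be told apart. Contacts were measured by SMC1 HiChIP, which ligates nearby DNA ends in fixed nuclei and enriches for those bound by SMC1, a core cohesin subunit. Each contact is counted as a paired-end tag (PET), and the libraries held between 661881 and 765017 PETs. Contacts measure neither the STAG2 transcript nor markers of Ewing sarcoma, so neither label could be checked. The labels do not state whether replicate libraries came from different cultures, and the errors given may thus be technical only.

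Ewing sarcoma is driven by a fusion of EWSR1 with FLI1, an ETS-family transcription factor. The fusion protein keeps the DNA-binding domain of FLI1, which recognises GGAA, and binds both single ETS sites and runs of GGAA repeats, many of which act as enhancers in these tumours. Cohesin extrudes DNA into loops, often until it meets CTCF, and STAG2 is an alternative subunit of that complex which is lost in a subset of Ewing sarcomas. FLI1-bound sites joined by cohesin can therefore hold enhancers, promoters or CTCF sites.

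The promoters of 4 genes that the authors' table places at flagged anchors, and that stand in a list of genes activated by the fusion, are shown so that the GGAA core can be seen in its setting. They encode caveolin-1, the main coat protein of caveolae (CAV1), the orphan nuclear receptor DAX1 (NR0B1), a glycosyltransferase (UGT3A2) and a transcriptional repressor downstream of Notch (HES1). Sequences are the 250 bases before the RefSeq start in GRCh38.p14, 5′ to 3′ on the gene's strand, with GGAA and its reverse complement TTCC in capitals. The deposited coordinates are hg19, so the windows were matched by symbol alone, and the start shown may not be the one within the anchor.
CAV1, chr7:116524759-116525008, plus strand: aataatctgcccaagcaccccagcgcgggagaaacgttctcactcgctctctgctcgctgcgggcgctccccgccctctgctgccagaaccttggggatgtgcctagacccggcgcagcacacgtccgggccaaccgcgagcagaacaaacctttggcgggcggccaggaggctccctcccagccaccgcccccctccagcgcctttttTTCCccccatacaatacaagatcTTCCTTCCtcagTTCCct
NR0B1, chrX:30309391-30309640, minus strand: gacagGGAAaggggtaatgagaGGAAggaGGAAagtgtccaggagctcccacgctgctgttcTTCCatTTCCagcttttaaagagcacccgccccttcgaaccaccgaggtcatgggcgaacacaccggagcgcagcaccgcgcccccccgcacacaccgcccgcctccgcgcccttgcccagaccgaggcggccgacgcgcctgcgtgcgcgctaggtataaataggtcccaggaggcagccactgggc
UGT3A2, chr5:36066883-36067132, minus strand: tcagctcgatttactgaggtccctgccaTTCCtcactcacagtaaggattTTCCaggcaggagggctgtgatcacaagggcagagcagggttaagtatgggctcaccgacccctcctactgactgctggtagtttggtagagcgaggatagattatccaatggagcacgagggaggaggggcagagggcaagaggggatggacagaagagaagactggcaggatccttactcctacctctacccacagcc
HES1, chr3:194135898-194136147, plus strand: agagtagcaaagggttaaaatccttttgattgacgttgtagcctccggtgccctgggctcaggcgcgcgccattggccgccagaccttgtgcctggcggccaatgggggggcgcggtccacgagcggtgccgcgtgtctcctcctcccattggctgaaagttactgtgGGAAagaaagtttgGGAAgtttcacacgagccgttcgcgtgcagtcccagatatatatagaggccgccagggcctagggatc
The window of CAV1 held 4 GGAA cores over both strands, NR0B1 held 5, and UGT3A2 and HES1 held 2 each. CAV1 alone among the 4 had a direct tandem, GGAAGGAA or TTCCTTCC, beginning 18 bases before the start. Of 28 genes placed at flagged anchors, 20 had a sequence in the RefSeq table, and 17 of these (85%) held GGAA or TTCC against 92.8% of 27305 genes in the table. The tandem, which contains the shorter core, stood in 1 of 20 (5%) against 2.99% of all. A match is a description of letters, and the flagged site can lie anywhere in an anchor that is kilobases wide.

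FLI1-flagged anchors carried the marks of distal regulatory elements more often than other anchors of the differential table. H3K27ac, a histone mark of active enhancers and promoters, was flagged at 155 of 172 (90.1%) against 500 of 962 unflagged anchors (52%). H3K27ac without a promoter was flagged at 124 (72.1%) against 247 (25.7%). A promoter was flagged at 33 (19.2%) against 292 (30.4%), and CTCF at 78 (45.3%) against 470 (48.9%). Only 11 flagged anchors (6.4%) carried none of the other 3 flags, against 237 (24.6%). These are shares of anchors, which are no replicates, so no test was run over them. Among members with 1 flagged end, the opposite end was itself an anchor of the differential table in 326 loops. These opposite ends had H3K27ac in 171 (52.5%), CTCF in 127 (39%) and a promoter in 67 (20.6%).

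Flagged anchors took part in more loops than other anchors of the table. The median was 6 loops per flagged anchor (quartiles 3 and 12), against 4 per unflagged anchor and 1 over all anchors of high-confidence loops. At least 10 loops ended at 57 flagged anchors (33.1%), against 19.2% of unflagged and 4.05% of all anchors, and 22 flagged anchors had a single loop. Flagged anchors were also wider, with a median of 6.80 kb against 5.65 kb. Among anchors of 4 to 10 kb the median was 5 loops in both classes, so the difference in loop number was not seen at matched width. At anchors with H3K27ac but neither promoter nor CTCF the median was 4 loops in both classes. With H3K27ac and CTCF but no promoter it was 7 against 6, and without H3K27ac 5 against 3. Flagged promoter anchors with H3K27ac were wider still, at a median of 14.9 kb with 11 loops, against 7.12 kb with 6 loops for unflagged ones.

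The 6 flagged anchors with the most loops held 214 members (15%). A 45.3-kb anchor at chr9:132073682-132119020 (hg19) had 49 loops, 7 of them in the differential table, and no promoter flag. The anchor of IER5L, a gene of the immediate-early response family, lay upstream of it at chr9:131928426-131949432 with 44 loops. SMAD7, which encodes an inhibitor of TGF-beta signalling, had 38 loops at a 41.5-kb anchor. An anchor on chromosome 17 that holds the transcripts RP11-1055B8.6 and RP11-1055B8.7 had 29, as did a further chromosome 9 anchor at chr9:131898310-131919314. UBAC1, which encodes a ubiquitin-associated protein, had 28 and was taken by genome order over an equal count at PREX1, a guanine exchange factor of Rac. Loops with both ends flagged joined the IER5L anchor to the anchor with 49 loops and to that at chr9:131898310-131919314.

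Members were wider than the loops at unflagged anchors of the same table. The median width, midpoint to midpoint, was 65.1 kb (quartiles 25.6 and 171 kb), against 41.6 kb (15.9 and 113 kb) for 4495 loops at unflagged anchors and 24.5 kb for all high-confidence loops. Loops of 500 kb or more made up 4.70% of members against 1.31% of the loops at unflagged anchors, and loops under 20 kb 19.9% against 31.1%. The members ranged from a 5.06-kb loop within RGL1, a Ral exchange factor, to a 1978-kb loop on chromosome 3. The order held in all 13 chromosomes with at least 20 members, where the members' median exceeded that of all loops. It was also seen without chromosome 9 (59.4 against 38.4 kb), among loops of at least 20 PETs (48.0 against 25.3 kb) and at H3K27ac anchors lacking promoter and CTCF (50.3 against 36.0 kb). Without the 6 anchors with the most loops the members' median was 56.4 kb.

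**Figure D1:**
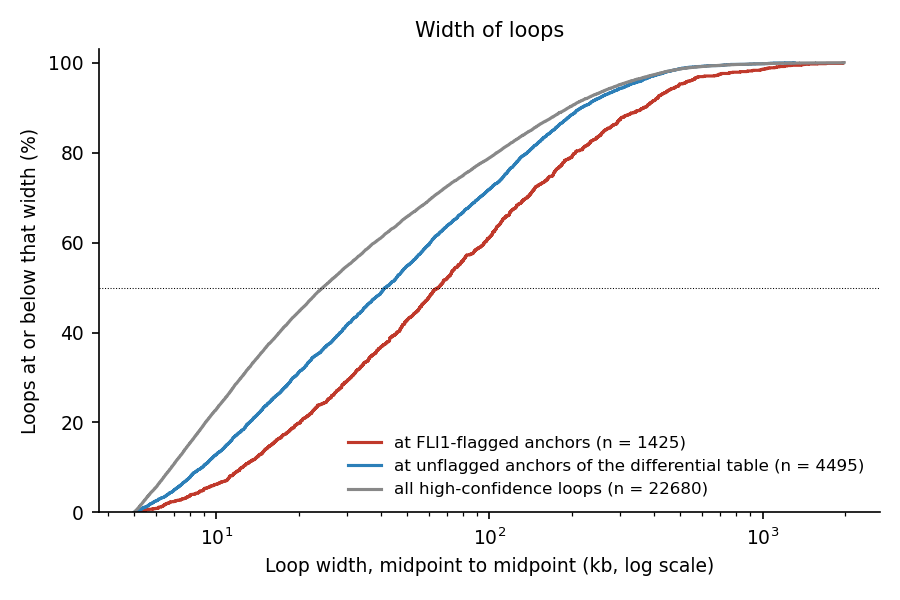
Cumulative share of loops (%) by width in kb on a log scale, for 1425 members, 4495 loops at unflagged anchors of the differential table and all 22680 high-confidence loops. The members' curve lies to the right of the others, crossing 50% at 65.1 kb against 41.6 and 24.5 kb.

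The width difference was present in each library. Weighted by PETs, the members' median width was 46.0 and 43.1 kb in STAG2-null 1 and 2 and 50.3 and 51.9 kb in wild-type 1 and 2. For loops at unflagged anchors it was 24.7, 23.8, 29.1 and 29.1 kb in the same order. The members were wider in each of the 4 libraries, which all count the same set of loops. In both classes the STAG2-null values lay below the wild-type values without overlap, as they did over all high-confidence loops (at most 18.1 kb in STAG2-null and up to 20.4 kb in wild-type libraries).

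The genotype contrast chose these anchors through the differential table, so everything that follows on STAG2-null against wild-type is a description without a test. Members held 1.78% and 1.94% of all PETs in the STAG2-null libraries and 1.78% and 1.72% in the wild-type libraries, or 1.86% ± 0.114 against 1.75% ± 0.0466 (SD, n = 2 each). The genotypes overlapped, since wild-type 1 lay level with STAG2-null 1. The 169 members that are in the differential table held 0.304% and 0.346% against 0.263% and 0.254%, and the 1256 others 1.47% and 1.59% against 1.52% and 1.46%. The genotypes separated in the loops that the contrast had picked and overlapped in the others.

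Single loops were thinly covered, with a median of 24 PETs over the 4 libraries (8 to 312). The differential table held 2.87% of all high-confidence loops and 169 of the 1425 members (11.9%), a share that the choice of anchors raises by construction. In edgeR's quasi-likelihood fit over all 22680 loops, 0.0529% were called at an adjusted p under 0.05 (0.0309% higher and 0.022% lower in STAG2-null cells). Among the members 4 were called higher and 2 lower, from which nothing is read here. The median log2 change of the members was -0.02, as for all loops, against -0.12 for loops at unflagged anchors. With each chromosome scaled on its own it was 0.11, against 0.081 for all loops and 0.0027 for those at unflagged anchors, so all 3 medians moved up. Without a library the members' median lay between -0.015 and 0.070, and that of all loops between -0.051 and 0.045.

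In the authors' deposited table, 107 of 169 loops with a flagged end were stronger in STAG2-null cells (63.3%), against 243 of 481 without one (50.5%). Away from chromosome 9, the authors' deposited table gave 105 of 144 (72.9%) against 238 of 391 (60.9%). Away from both chromosomes 7 and 9, the authors' deposited table gave 77 of 116 (66.4%) against 193 of 339 (56.9%). Direction varied with width in both classes. At 5 to 20 kb, 58 of 66 flagged loops of the authors' deposited table were stronger in STAG2-null cells (87.9%), against 69.3% of unflagged ones. Between 20 and 200 kb most were stronger in wild-type cells, with 12 of 30, 6 of 20 and 7 of 24 higher in STAG2-null cells in the authors' deposited table at 20 to 50, 50 to 100 and 100 to 200 kb. At 200 to 500 kb, 16 of 21 were stronger in STAG2-null cells, and at 500 kb or more 8 of 8, with 5 of 5 unflagged ones in the authors' deposited table. The adjusted p-values of flagged loops in the authors' deposited table ran from 0.000986 to 0.0990, and the largest of the whole table was 0.0998.

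**Figure D2:**
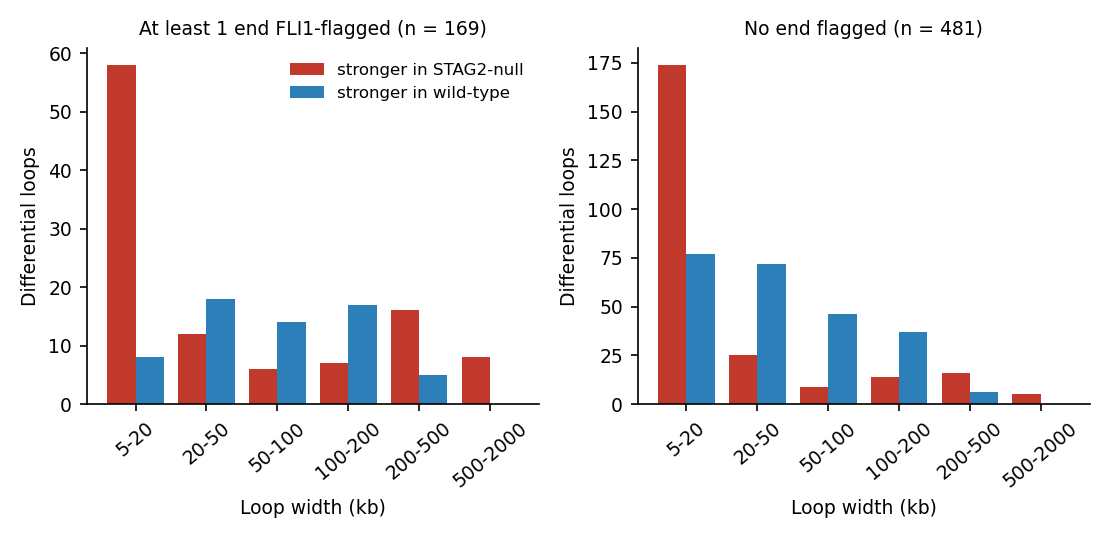
Number of differential loops per width class in kb, stronger in STAG2-null (red) or in wild-type cells (blue), for 169 loops with a flagged end (left) and 481 without (right), from the authors' deposited table. The vertical axes differ in scale. Among flagged loops the red bar is taller under 20 kb (58 against 8) and above 200 kb, and the blue bar between 20 and 200 kb.

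Members outside the differential table also varied with width. Their median log2 change was 0.20 at 5 to 20 kb, -0.15 at 20 to 50 kb, -0.07 at 50 to 100 kb, -0.16 at 100 to 200 kb, -0.02 at 200 to 500 kb and 0.19 at 500 kb or more. Over all high-confidence loops the medians in the same order were 0.12, -0.02, -0.18, -0.16, -0.01 and 0.20.

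PETs of all pairs were summed per anchor, which gives larger counts than a single loop. Of 171 flagged anchors with at least 50 PETs, 122 lay above 0 (71.3%) with a median log2 change of 0.32, against 513 of 952 unflagged anchors (53.9%) with a median of 0.06. In edgeR's fit 33 flagged anchors were called higher and 16 lower (28.7%), beside 26.3% of unflagged anchors and 5.2% of all 16569 anchors tested (2.12% higher and 3.08% lower). Without STAG2-null 2 these counts fell to 7 and 6, without wild-type 1 to 11 and 2, and without wild-type 2 to 8 and 3, and without STAG2-null 1 they were 48 and 23. Leaving out STAG2-null 2 also lowered the median to 0.16. Without the PETs of the differential loops themselves the flagged median was 0.19.

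On several chromosomes flagged and unflagged anchors lay to the same side of 0. On chromosome 7 the median was 0.57 for 26 flagged anchors and 0.47 for unflagged ones, and all of the differential loops with a flagged end (28 of 28) were stronger in STAG2-null cells in the authors' deposited table. On chromosome 9 the medians were -0.38 and -0.58, and 23 of 25 such loops in the authors' deposited table were stronger in wild-type cells. On chromosome 3 they were 0.63 and 0.58, and on chromosome 16 they were 0.59 and 0.51. The flagged median exceeded the unflagged one on 12 of 12 chromosomes with at least 5 anchors of each class, by little on chromosome 5 (0.325 against 0.320). Among chromosomes with fewer anchors it was lower on 19 (0.11 against 0.49), 21 (-0.84 against -0.39) and X (0.41 against 0.58), and higher on the rest. With each chromosome scaled on its own, the flagged median over all chromosomes was 0.26 and the unflagged one 0.07. The part of these chromosome-wide shifts in the results for single loops was not tested.

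**Figure D3:**
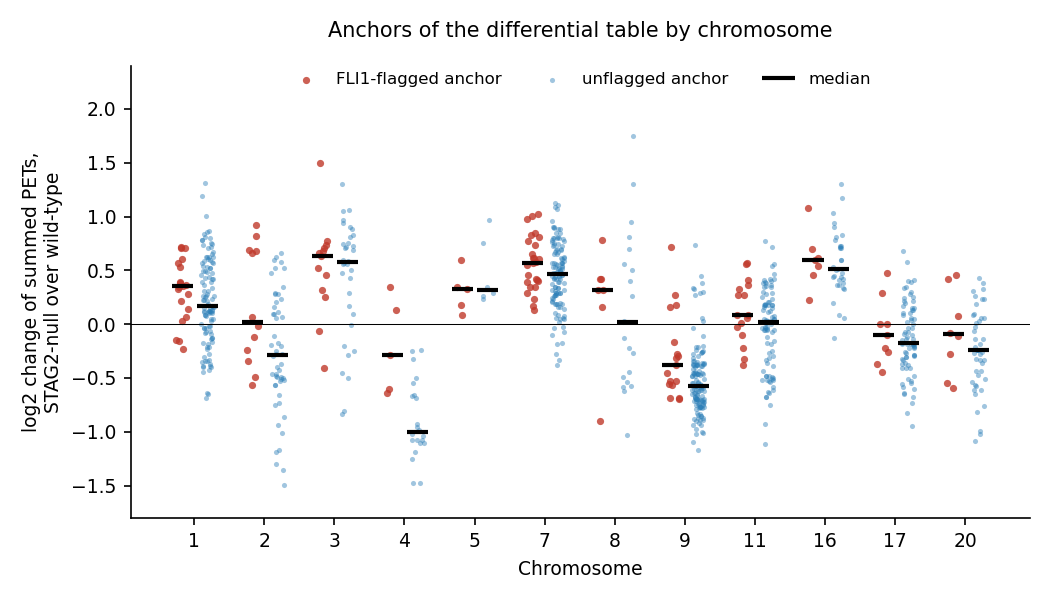
log2 change of summed PETs (STAG2-null over wild-type) per anchor, for the 12 chromosomes with at least 5 flagged (red) and 5 unflagged anchors (blue) of the differential table; black bars are medians. Chromosomes 7 and 9 lie on opposite sides of 0 in both classes, and each red median sits above its blue neighbour.

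The classes differed in each stratum by H3K27ac and promoter flags, not always in the same direction. Flagged anchors with H3K27ac and no promoter had a median log2 change of 0.35, with 93 of 123 above 0 (75.6%), against 0.11 and 141 of 246 (57.3%) for unflagged ones. At promoters with H3K27ac the order was the other way, at 0.11 for 31 flagged and 0.19 for 253 unflagged anchors. Without H3K27ac the medians were 0.23 for 17 flagged and -0.08 for unflagged anchors. Anchors with 1 to 5 loops had medians of 0.48 and 0.25, and those with 6 or more 0.16 and -0.14. Of the 23 flagged anchors with at least 2 differential loops, 13 had only higher loops, 9 only lower ones, and SMAD7 had both.

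Genes listed as targets of EWS-FLI1 were looked up, 36 as activated and 16 as repressed. These lists were chosen with earlier results of these data known, so the counts are a description without a test. Of all promoter anchors of the differential table, 33 were flagged and 292 were not. Of the activated genes, 9 were named at any anchor of the differential table. CAV1, NR0B1, UGT3A2, HES1 and KIRREL were placed at a flagged anchor, and GSTM4 and MEIS1 had a promoter at an end of a loop with a flagged anchor. ETV6 and BCL6 were named at anchors without a flag, and the repressed gene NR2F2 likewise. No gene of a list of 10 cohesin genes was named.

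The 56.5-kb loop of CAV1, with both ends flagged, joined chr7:116104414-116111965 to chr7:116159015-116170396. It held 37 and 39 PETs in STAG2-null 1 and 2 and 17 and 13 in wild-type 1 and 2, a log2 change of 1.32 ± 0.33 (SE). The groups did not overlap, and a 24.7-kb loop to the same anchor held 20 and 31 against 15 and 12. All PETs of the CAV1 anchor summed to 293 and 342 against 200 and 218, a log2 change of 0.61 ± 0.13. Without the PETs of the differential loops this was 0.51 ± 0.13. Unflagged anchors of chromosome 7 had a median of 0.47, and the part of that shift in the CAV1 values was not tested.

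The HES1 anchor lay at chr3:193849348-193861135. Its 240-kb loop, also flagged at both ends, held 18 and 11 PETs against 7 and 2 (log2 change 1.64 ± 0.54), and its 171-kb loop 4 and 10 against 1 and 1. Summed over all pairs the anchor held 127 and 156 against 87 and 88 (0.70 ± 0.16). The genotypes did not overlap in either loop or in the sum, and the sum without the differential loops gave 0.57 ± 0.17. Unflagged anchors of chromosome 3 had a median of 0.58, and the part of that shift in the HES1 values was not tested.

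At NR0B1 the only high-confidence loop was 6.15 kb wide, between chrX:30318842-30324203 and the flagged anchor chrX:30325176-30330172. It held 11 and 24 PETs against 6 and 7 (1.39 ± 0.47), while the anchor's summed PETs were 22 and 39 against 22 and 22, which touch, and without that loop the change was -0.23 ± 0.41. UGT3A2 had a 7.93-kb loop with 13 and 15 against 4 and 7 PETs (1.31 ± 0.52). A loop of 58.5 kb whose anchors hold the promoters of GSTM4 and GSTM5, glutathione transferases, held 7 and 11 against 3 and 2 (1.78 ± 0.67).

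MEIS1, a homeobox transcription factor, was reached by long loops from flagged distal anchors. The 684-kb loop held 5 and 15 PETs in STAG2-null libraries and 0 and 0 in wild-type libraries. With the wild-type group set at the 3 PETs that a count of 0 allows, the ratio was 6.59 (lower exact 95% binomial limit 4.88). The 443-kb loop on the other side held 10 and 14 against 6 and 3 (1.37 ± 0.56). KIRREL, which encodes a nephrin-like adhesion protein, had a 128-kb loop with 54 and 91 against 34 and 38 PETs (0.99 ± 0.24). Its anchor as a whole held 354 and 476 against 382 and 416, so the genotypes overlapped there, and the change without the picked loop was -0.07 ± 0.12.

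**Figure D4:**
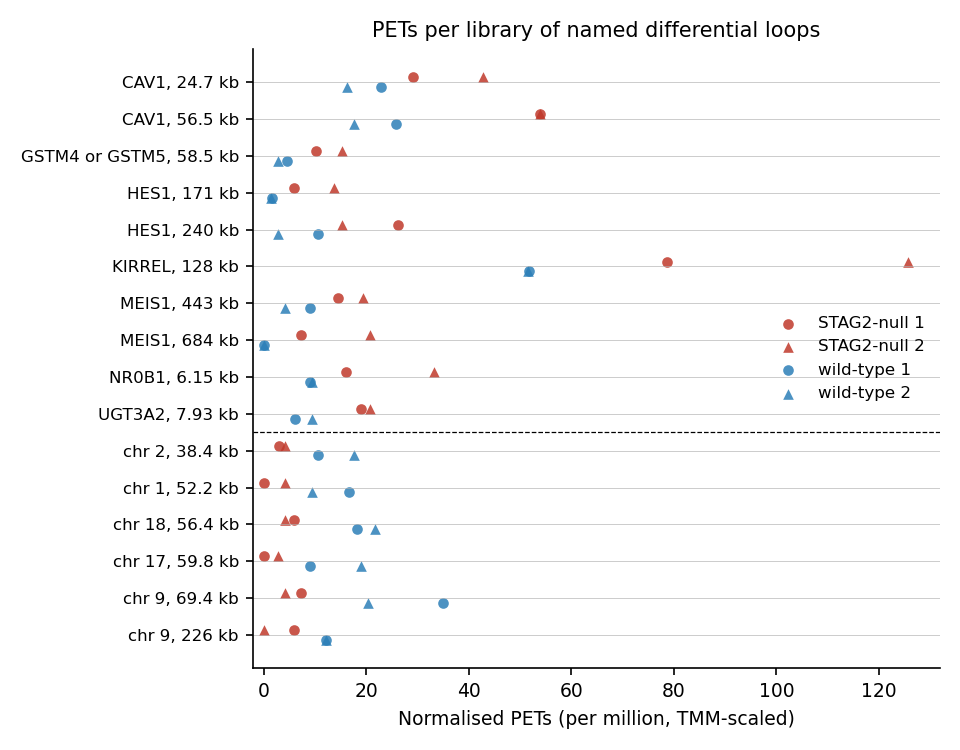
Normalised PETs per library (per 1000000 of TMM-scaled library size) of differential loops of listed EWS-FLI1 targets (above the dashed line) and of the 6 loops with the largest decrease described next (below). Red is STAG2-null and blue wild-type, circles are replicate 1 and triangles replicate 2. Red and blue symbols do not overlap in any of these loops. This was a condition for picking the loops below the line, and those above it were also picked from the differential table, so the lack of overlap is no result.

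Outside the listed targets, other picked loops held more PETs in STAG2-null cells. A 1586-kb loop on chromosome 6, flagged at both ends, held 10 and 8 PETs against 1 and 2 (ratio of summed PETs 5.93, exact 95% binomial interval 1.73 to 31.4). A 365-kb loop across ZNF217 and BCAS1 on chromosome 20 held 6 and 11 against 1 and 2. Among well-covered loops, the 11.6-kb loop whose anchors hold the promoters of MCM7, AP4M1 and COPS6 held 82 and 79 against 36 and 42 PETs (1.03 ± 0.23). MCM7 is a subunit of the replicative helicase. The flagged anchor of this loop, at chr7:99681986-99693887, summed to 286 and 327 against 209 and 213. With each 10 Mb window scaled on its own the loop was at 0.69. Unflagged anchors of chromosome 7 had a median of 0.47, and the part of that shift in these values was not tested.

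The picked loops with the largest decrease were between 38.4 and 226 kb wide. A 59.8-kb loop in a region holding RAI1, SREBF1 and TOM1L2 held 0 and 2 PETs against 6 and 14. A 52.2-kb loop within NAV1, which encodes a neuron navigator protein, held 0 and 3 against 11 and 7. The 69.4-kb loop of C9orf62 held 5 and 3 against 23 and 15 (-2.23 ± 0.52), and its anchor at chr9:138220657-138242758 summed to 267 and 259 against 407 and 446 (-0.69 ± 0.13). Unflagged anchors of chromosome 9 had a median of -0.58, and the part of that shift in the C9orf62 values was not tested. CTIF, a translation initiation factor, held a 56.4-kb loop with 4 and 3 against 12 and 16.

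Among the members with the most PETs, some were close to equal and those on chromosome 9 were lower. A 72.4-kb loop of the RP11-1055B8.6 anchor held 60 and 89 against 93 and 70 PETs (-0.16 ± 0.22), and a 16.8-kb loop at PKP1, a desmosomal plakophilin, 69 and 85 against 61 and 61 (0.32 ± 0.22). The 15.3-kb loop of PREX1 held 58 and 75 against 53 and 60. From the chromosome 9 anchor with 49 loops, a 159-kb loop held 56 and 42 against 80 and 85 (-0.77 ± 0.22) and a 70.2-kb loop 43 and 43 against 71 and 99 (-0.99 ± 0.23). With each 10 Mb window scaled on its own, the 159-kb loop was at -0.23 ± 0.17 and the 70.2-kb loop at -0.45 ± 0.18. The summed PETs of the anchor with 49 loops were 727 and 614 against 909 and 1082 (-0.55 ± 0.12). Unflagged anchors of chromosome 9 had a median of -0.58, and the part of that shift in these values was not tested.

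Loops with both ends flagged joined 86 of the 172 anchors into 37 networks, 30 of them of 2 anchors. Their median width was 123 kb against 62.8 kb for loops with 1 flagged end, and 20 of 55 (36.4%) were 200 kb or wider against 20.4%. Of the 55, 40 lay above 0 and 15 below, with a median log2 change of 0.99. The 35 that are in the differential table make up 63.6%, against 9.78% of loops with 1 flagged end, which follows in part from the rule, since both their anchors come from that table. Of the 35, the authors' deposited table gives 28 as stronger in STAG2-null cells. Of the 20 outside it, 12 lay above 0, with a median of 0.11. All PETs of the 55 loops came to 744 and 810 against 582 and 629, or 0.109% and 0.116% against 0.0879% and 0.0822% of the libraries.

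**Figure D5:**
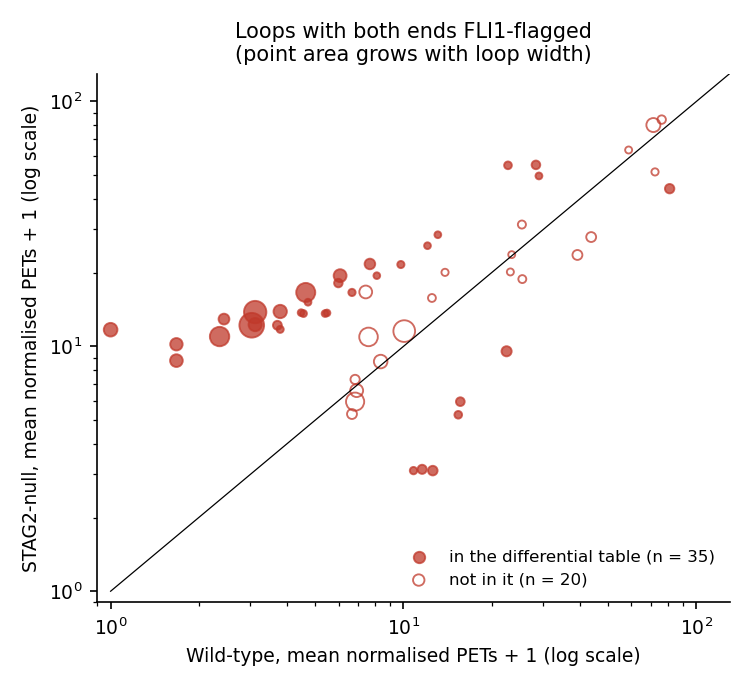
Mean normalised PETs plus 1 of the 55 loops with both ends flagged, wild-type on the horizontal and STAG2-null on the vertical axis, both on log scales. The line marks equal values, and point area grows with loop width. Of 35 filled points (differential table) 28 lie above the line, and of 20 open points 12 do.

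Among those with the most PETs, several differed little between genotypes. The 98.3-kb loop from chr18:46351251-46372019 to SMAD7 held 68 and 49 against 56 and 48 PETs (0.15 ± 0.24). A 527-kb loop from the HOXD cluster, which encodes homeobox factors of body patterning, to chr2:177511429-177522752 held 48 and 64 against 47 and 51 (0.17 ± 0.24). By contrast, PADI1, a peptidylarginine deiminase gene, lay in a 109-kb loop of the differential table with 25 and 52 against 19 and 19 (0.99 ± 0.31). The change of that loop was 1.39 without STAG2-null 1 and 0.44 without STAG2-null 2.

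Networks of flagged anchors went in both directions. Over 886 kb of chromosome 7, 4 anchors were joined by 4 loops that held 38 and 35 PETs against 9 and 14, and all 4 lay above 0. One of these, 495 kb wide around CDK14, held 9 and 6 against 0 and 0, a ratio of 4.94 with the wild-type group set at 3 PETs (lower limit 3.55). At IER5L, 4 anchors within 314 kb were joined by 4 loops with 106 and 70 against 138 and 153 PETs. All 4 lay below 0, except that the 30.1-kb loop was at 0.039 with each 10 Mb window scaled on its own. The 157-kb loop held 43 and 17 against 50 and 62 (-0.91 ± 0.26), which was -1.76 without STAG2-null 1 and -0.33 without STAG2-null 2. It was -0.38 with each 10 Mb window scaled on its own. The largest network, on chromosome 8, joined 6 anchors by 7 loops over 3060 kb with 60 and 86 against 44 and 45 PETs. A 409-kb loop around PRKCB, a protein kinase C gene and listed target, held 4 and 7 against 0 and 1.

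The 33 flagged promoter anchors were split between directions, 23 of them with a placed gene. Besides HES1 and CAV1, that of MAGEF1 was high, at 0.68 ± 0.27, with 49 and 35 against 25 and 28 summed PETs. HES1 and MAGEF1 lie on chromosome 3, whose unflagged anchors had a median of 0.58, and CAV1 on chromosome 7, where it was 0.47. The lowest with a placed gene were C9orf62, then NCS1, a neuronal calcium sensor gene, with 238 and 229 against 351 and 346 (-0.57 ± 0.13), and IER5L with 532 and 436 against 599 and 742 (-0.45 ± 0.12, but 0.053 with each 10 Mb window scaled on its own). UBAC1 had 430 and 388 against 500 and 576 (-0.38 ± 0.12, but 0.13 with that scaling). These 4 lie on chromosome 9, whose unflagged anchors had a median of -0.58. SMAD7 was near 0, with 450 and 458 against 445 and 516 (-0.07 ± 0.12), while its single loops went both ways: a 386-kb loop held 6 and 6 against 0 and 1, and a 141-kb loop 6 and 10 against 18 and 18. These 2 loops of SMAD7, the loop of PRKCB, the CDK14 loop and the networks were singled out after their values were seen.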

How the data were processed

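PETs were counted in 2 STAG2-null and 2 wild-type SMC1 HiChIP libraries. Per the submitters' processing notes HiC-Pro and hg19 were used. The sources used here state no settings of the loop caller. Deposited by the authors were raw counts of PETs per anchor pair and library, with p-values per pair, and 2 loop tables with counts, p-values and, for differential loops, log2 fold changes and TRUE or FALSE flags, per the file headers. The deposited log2 values are wild-type over mutant and were turned.

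Loops and anchors (PETs of all pairs at an anchor, at least 50) were fitted with edgeR 4.0.16 in R 4.3.3 (quasi-likelihood, genotype only, TMM, Benjamini-Hochberg over all features, adjusted p under 0.05). Library totals ran over all pairs. TMM factors over loops were 1.01, 1.04, 0.993 and 0.965 in STAG2-null 1 and 2 and wild-type 1 and 2. Normalised PETs are per 1000000 of scaled library size. The SE of a log2 change was worked back from edgeR's test, as the size of the change over the square root of its F statistic. DESeq2 gave larger SEs for such loops. Examples are 0.36 against 0.23 for the 70.2-kb loop of chromosome 9 and 0.65 against 0.26 for the 157-kb loop of IER5L. On simulated counts of these loops 0 of 100 changes of 2-fold and 22 of 100 of 4-fold were called, and for anchors 23 and 90 of 100, with 8 false calls. These counts were drawn with the same fixed dispersion for every feature and without regional shifts, so the figures may not hold for the real libraries. Intervals and floors (3 PETs over a group) cover counting error only. A gene was placed at an anchor only where 1 of the loop's 2 anchors had the promoter flag. Loops named were the 6 with the most PETs, the 6 per direction with the largest change among differential members of at least 20 PETs without overlap, the 6 with both ends flagged and most PETs, the widest and narrowest, the 6 anchors with most loops (ties by genome order), and anchors of listed EWS-FLI1 genes. Members, lists and tests were chosen with earlier results of these data known. Same-numbered libraries were not treated as pairs in the main fit. Alternatives were DESeq2 1.42.0, plain totals, other filters, scaling per chromosome or 10 Mb window, a replicate block, and leaving out each library or the differential loops.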

Additional observations from a re-analysis of the deposited data

How the results depend on the processing

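Counts of calls at flagged anchors depended on the setting. Against 4 higher and 2 lower loops, DESeq2 and plain library totals called 0 and 0, scaling per chromosome 2 and 0, and scaling per 10 Mb window 0 lower. At an unadjusted p under 0.05 DESeq2 had 23 member loops higher and 19 lower (71 and 91 of all 22680), and edgeR 149 and 113 (965 and 929). The 1256 members outside the differential table had 0 and 0 with DESeq2 and 42 and 51 with edgeR. Loops had been taken into that table by a p-value of the same contrast. The counts of the others are therefore lowered by construction, and nothing is read from them. The members' median log2 change of -0.02 became 0.046 with plain totals, 0.12 per 10 Mb window and 0.11 per chromosome. The median of all loops was 0.046, 0.091 and 0.081 in the same order. Without a library the members' median lay between -0.015 and 0.070, and that of all loops between -0.051 and 0.045.

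Against 33 higher and 16 lower anchors, DESeq2 called 1 and 3, scaling per 10 Mb window 4 and 0, scaling per chromosome 20 and 1, and the fit without the authors' differential loops 17 and 8. Over all 16569 anchors DESeq2 called 1 and 20, the 10 Mb windows 17 and 8, and the chromosome scaling 113 and 60. Leaving out a library gave 7 to 48 higher and 2 to 23 lower anchors. The median of 0.32 became 0.26 with at least 200 PETs, 0.35 with plain totals, 0.20 per 10 Mb window, 0.26 per chromosome and 0.19 without the differential loops, and lay between 0.16 and 0.37 without a library. Per 10 Mb window, 133 of the 171 flagged anchors lay above 0, against 122. Among named anchors called lower, 4 turned to above 0, at IER5L (0.053), UBAC1 (0.13), GAL3ST2 or NEU4 (0.057) and chr4:8259851-8270220 (0.044). The cause was not tested.

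The members' median width of 65.1 kb became 52.5 kb between inner edges, 48.0 kb with at least 20 PETs and 67.9 kb without the differential loops. The log2 ratio of PET shares of 0.09 became 0.013 as a share of high-confidence loops, and 0.02 to 0.15 without a library. The median of 6 loops per anchor became 3.5 with at least 20 PETs. With the replicate block, 5 member loops were called higher and 2 lower (8 and 8 of all loops). At flagged anchors 31 were called higher and 15 lower (299 and 443 of all anchors). Deviations of same-numbered libraries correlated at 0.0141 over all loops. Counts per loop are low, so this value cannot show whether same-numbered libraries were prepared together. Of the 169 differential members, 107 lay above 0 in the fit and with DESeq2, plain totals and both regional scalings. With at least 20 PETs, 130 were tested and 79 lay above 0. These counts and the values without chromosome 9 were added after seeing the data.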
